A study of Mus musculus with 6 samples.

Results

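Syndecans and glypicans are the main families of heparan sulfate proteoglycan carried on the cell surface. Their transcripts were examined in cultured primary mesangial cells of the mouse, which hold the capillary loops of the kidney glomerulus together, by RNA-Seq. The members were the genes whose symbol is Sdc1 to Sdc4, Gpc1 to Gpc4 or Gpc6, which is 9 names, and 7 of the 19730 rows of the expression table carry one of them: 4 syndecans and 3 glypicans. Gpc2 and Gpc3 were not analysed here. The 3 Control and 3 TGF-β1 libraries came from cells of passages 3 to 6 in a high-glucose medium (25.5 mM) with 20% foetal bovine serum, shared by both groups. The TGF-β1 group had received the cytokine at 10 ng/ml over 72 h. The labels give no strain, donor or vehicle, and collection in triplicate does not say whether the libraries were separate cultures, so p-values measure the spread between these libraries, which may be technical.

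A syndecan has a core protein that crosses the membrane once and ends in a short cytoplasmic tail, whereas a glypican is fixed to the outer leaflet of the membrane by a glycosylphosphatidylinositol (GPI) anchor. Both carry heparan sulfate, a long sulfated sugar chain that binds growth factors, morphogens and matrix proteins, and through these chains they act as co-receptors and store ligands at the cell surface. Syndecan-4 is a known component of focal adhesions, where it acts with integrins on fibronectin, and syndecan-1 is best known from epithelia and plasma cells.

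The cytoplasmic tail is what the 4 syndecans share most closely, and the end of the coding sequence is shown to let the members be compared. Each line gives the last 30 coding bases before the stop codon (mm9, coding strand), with the 4 codons of the tail end that binds PDZ domain proteins in capitals.

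Sdc1, chr12:8798581-8798610, plus strand: aaacccaccaagcaggagGAGTTCTACGCC

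Sdc2, chr15:32962263-32962292, plus strand: cagaaggcacccactaagGAGTTTTATGCA

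Sdc3, chr4:130378692-130378721, plus strand: aaacctgacaagcaggagGAGTTCTACGCT

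Sdc4, chr2:164251589-164251618, minus strand: aaaaaagcccccaccaatGAGTTCTACGCA

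Of these 30 bases, Sdc1 and Sdc3 had 26 in common and Sdc2 and Sdc4 had 22, while the other 4 pairs had 13 to 17. In the capital letters, Sdc2 differed from the other 3 at 2 or 3 of the 12 bases, and the others differed from each other at 1. Transcripts of the closest pair, Sdc1 and Sdc3, were both higher with TGF-β1, and those of Sdc2 and Sdc4 went in opposite directions, as described below. Any link between likeness of these bases and direction of change was not tested.

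With TGF-β1, 6 of the 7 members were called changed (adjusted p under 0.05 by limma over all 11898 tested rows), which is 85.7% against 48.1% of all tested rows. There were 4 upregulated members (Sdc1, Sdc2, Sdc3 and Gpc1) and 2 downregulated members (Sdc4 and Gpc6), where 24.5% of all tested rows were upregulated and 23.6% downregulated. Gpc4 was not called. The median absolute log2 change was 0.89 over the 7 members and 0.40 over all tested rows. The values of the libraries did not overlap between groups for 6 members, as for 59.4% of all tested rows. Values are FPKM, mapped fragments scaled to transcript length and library depth, which allows levels to be compared between genes if each row holds the whole gene. That is not stated, and the members have 1 to 5 annotated transcripts. Orders and shares of members below carry this limit. A log2 change is on the log2(FPKM + 1) scale.

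**Figure D1:**
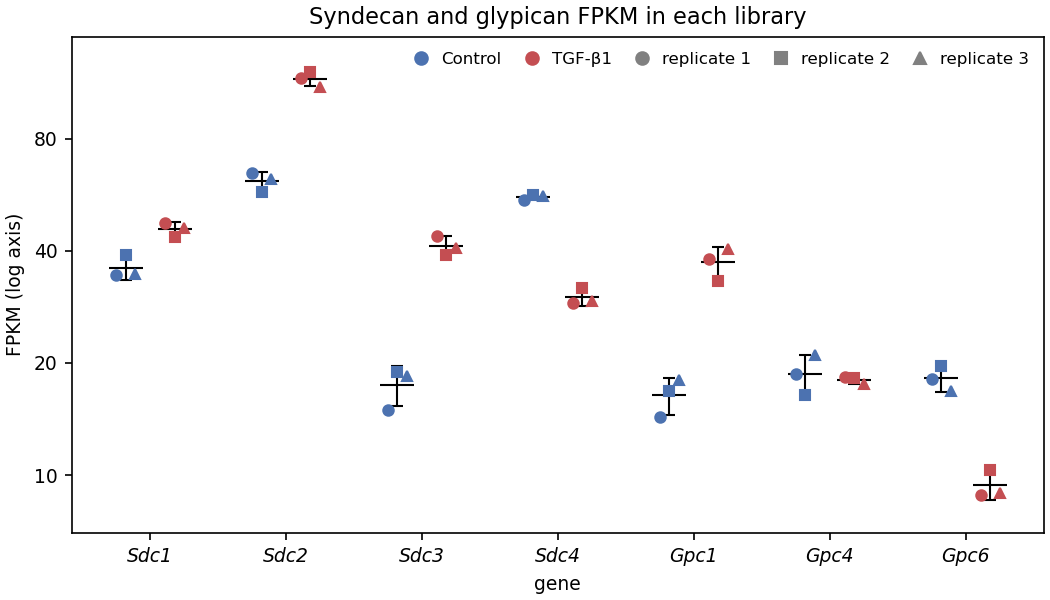
FPKM of each syndecan and glypican (log axis) in the 3 Control libraries (blue) and the 3 TGF-β1 libraries (red), with the replicate number as the marker shape and the mean ± SD (n = 3) in black. The groups lie apart for 6 genes, and for Gpc4 the Control range of 16.4 to 21.0 FPKM encloses the TGF-β1 values.

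Depth was 10.1 to 11.04 M fragments per library, recovered from the steps of the lowest FPKM values, and a member rested on about 444 to 3988 fragments in a library. Known TGF-β targets were higher in the treated libraries (5 of 5 tested, Fn1 from 386 ± 63.4 to 3134 ± 103 FPKM among them). Replicate 2 of TGF-β1 stood apart from the other libraries: its deviations from the group mean were lower in transcripts richer in GC (Spearman's rho -0.39 across 10116 genes, which are not independent), against -0.09 to 0.32 in the other 5. Among the 8 mesangial markers, Pdgfrb fell from 37.5 ± 4.82 to 29.2 ± 0.751 FPKM and Acta2 rose from 997 ± 89.7 to 3887 ± 348 FPKM (limma adjusted p 0.0396 and 8.64e-05). Tbx18 was at 4.29 and 4.59 FPKM and Gata3 at 1.76 and 1.03 FPKM, neither called, and Itga8, Des, Pdgfra and Thy1 had Control means of 0.0196 to 0.271 FPKM. Some markers of other cells moved too. The summed macrophage markers (6 genes with a row) went from 87.0 to 114 FPKM in Control to 9.03 to 11.3 FPKM with TGF-β1. Of this, Cd14 was at 94.3 and 7.71 FPKM on average. Csf1r also fell, from 6.27 to 0.411 FPKM (limma adjusted p 8.56e-05), and Cd68, at 2.79 and 2.22 FPKM, was not called. Ptprc was listed at 0 in Control, and Itgam and Lyz2 had Control means of 0.0250 and 0.0270 FPKM. The summed epithelial markers (7 genes with a row) went from 35.0 to 37.3 FPKM to 3.62 to 3.76 FPKM, with Cldn2 at 32.5 and 0.579 FPKM of it on average. They did not move together: in the fit without the filter Krt7 and Lrp2 were also called down, but Krt18 (0.279 to 1.57 FPKM) and Krt19 (0.156 to 1.06 FPKM) were called up, and Cdh1 was at 0.0174 FPKM in Control. The summed podocyte markers (5 genes) went from 27.8 to 32.2 FPKM to 14.9 to 15.5 FPKM, with Nphs1 at 0.222 FPKM in Control. The 6 endothelial markers summed to 2.83 to 4.52 FPKM in any library. Of the 4 plasma cell markers with a row, Xbp1 rose from 54.6 ± 16.1 to 121 ± 5.49 FPKM, and Jchain, Cd79a and Prdm1 had group means of at most 0.201 FPKM. The part of these cells in the results below was not tested, and a change in the share of cells cannot be told apart from a change per cell.

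Sdc2 encodes syndecan-2, the main syndecan of fibroblast-like cells. Control replicates 1 to 3 had 64.6, 57.4 and 62.4 FPKM, and TGF-β1 replicates 1 to 3 had 117, 121 and 110 FPKM. It was the highest member in every library, and all treated libraries were above all Control libraries. Its mean (± SD, n = 3) rose from 61.5 ± 3.69 to 116 ± 5.34 FPKM, and the log2 change was 0.90 with an SE of 0.081 (adjusted p 2.96e-04, limma). Its level stood above 91.0% of the protein-coding rows (300 nt or longer) in Control and above 94.7% of them after treatment. The row is on mm9 chromosome 15, 32850478 to 32964485, where no other gene overlaps.

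Sdc3, known as N-syndecan for its place in the nervous system, had the largest log2 change upwards of the 7, within the error of that of Gpc1. The Control libraries had 15.0, 18.9 and 18.5 FPKM and the treated libraries 43.9, 38.8 and 40.8 FPKM. The lowest treated library was above the highest Control library by more than the Control mean. The mean rose from 17.5 ± 2.18 to 41.2 ± 2.57 FPKM (adjusted p 3.42e-04 by limma, log2 change 1.20, SE 0.11). Sdc3 (chromosome 4, 130348452 to 130382234) overlaps Gm12970 on the opposite strand, and whether reads were assigned by strand is not stated.

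Sdc1 had the smallest change among the called members. Its FPKM was 34.5, 39.0 and 34.5 in Control against 47.5, 43.5 and 45.9 after treatment. The groups did not overlap, but Control replicate 2 and TGF-β1 replicate 2 lay only a few FPKM apart. The mean rose from 36.0 ± 2.58 to 45.6 ± 2.01 FPKM (adjusted p 0.0171 by limma, log2 change 0.33, SE 0.083). The call was lost without Control replicate 1 (limma adjusted p 0.0536), TGF-β1 replicate 1 (0.0713) or TGF-β1 replicate 3 (0.0576), and when libraries were rescaled to the sum of their longer protein-coding rows (adjusted p 0.228 by limma, log2 change 0.14). That rescaling moved the median change of all tested rows from -0.02 to -0.19, and relative to that median Sdc1 stood at 0.35 before it and 0.33 after it. Each library is divided by 1 factor, so a change relative to the median stays nearly the same by construction. These relative values therefore do not restore the call. Sdc1 is on chromosome 12, 8778129 to 8800521.

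Sdc4, the focal adhesion syndecan, was the only syndecan with a call downwards. Control libraries had 54.8, 56.3 and 56.1 FPKM, and treated ones 29, 31.8 and 29.3 FPKM. Control libraries were within 2 FPKM of each other, and every treated library was lower than every Control library. The mean fell from 55.7 ± 0.843 to 30.04 ± 1.55 FPKM, and the log2 change was -0.87 with an SE of 0.072 (adjusted p 2.22e-04, limma). Its level stood above 90.1% of protein-coding rows in Control and above 81.5% with TGF-β1. Sdc4 is on chromosome 2, 164249747 to 164269387, with no overlapping gene.

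Glypican-1, encoded by Gpc1, binds fibroblast growth factors and other heparin-binding ligands. FPKM values were 14.3, 16.9 and 17.98 in Control and 37.9, 33.3 and 40.4 in the treated group. All treated libraries were above all Control libraries. The mean rose from 16.4 ± 1.86 to 37.2 ± 3.64 FPKM (adjusted p 5.09e-04 by limma, log2 change 1.14, SE 0.12). Gpc1 (chromosome 1, 94728222 to 94756775) holds the microRNA gene Mir149 on the same strand.

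Gpc6, which spans 1054 kb of chromosome 14 (117324519 to 118378751), encodes glypican-6. Its Control libraries had 18.1, 19.7 and 16.8 FPKM, and its treated libraries 8.84, 10.3 and 8.97 FPKM. The groups did not overlap, and it was the lowest member in each treated library. The mean fell from 18.2 ± 1.44 to 9.38 ± 0.817 FPKM (adjusted p 6.91e-04 by limma, log2 change -0.89, SE 0.098).

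Gpc4, which encodes glypican-4, was not called. The libraries had 18.7, 16.4 and 21.0 FPKM without the cytokine and 18.3, 18.2 and 17.5 FPKM with it. The treated values lay inside the Control range. The log2 change was -0.04, with a 95% confidence interval of -0.29 to 0.20 (limma adjusted p 0.752). Without Control replicate 3, the highest library, it was 0.039. Gpc4 is on chromosome X, 49406198 to 49518429.

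**Figure D2:**
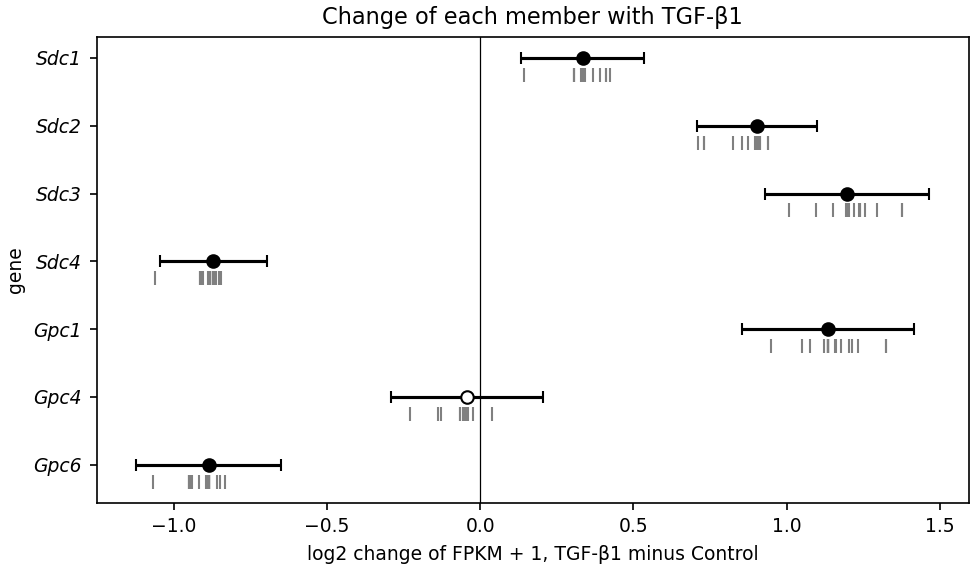
Log2 change of FPKM + 1 (TGF-β1 minus Control) of each member, with its 95% confidence interval from limma. Filled points had an adjusted p under 0.05, and grey ticks under each point are the values under 19 other settings, which stayed on 1 side of 0 for every member but Gpc4. Some of these settings leave the log2 change as it is by design.

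The members with GC-rich transcripts and those with GC-poor transcripts lay on different sides in TGF-β1 replicate 2. Gpc1 (60.5% GC), Sdc3 (58.7%) and Sdc1 (55.2%) had their lowest treated value in that library, and Sdc2 (42.4%), Gpc6 (45.9%) and Sdc4 (49.3%) had their highest there. These deviations were at most 0.15 on the log2 scale. When each library was corrected for its GC and length trend, the log2 changes were 1.33 for Gpc1, 1.38 for Sdc3, 0.41 for Sdc1, 0.73 for Sdc2, -0.95 for Gpc6 and -0.91 for Sdc4, all with limma adjusted p-values of at most 0.0038. The trend was taken against the mean of both groups together. The correction therefore also removes any such trend between the groups, and the part owed to replicate 2 was not separated.

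The order of the members by level differed between the groups. In Control, Sdc2 was followed by Sdc4 and Sdc1, each apart from the next, while Gpc4, Gpc6, Sdc3 and Gpc1 had means of 16.4 to 18.7 FPKM and each overlapped its neighbour in the order. With TGF-β1, Sdc2 was followed by Sdc1, Sdc3 and Gpc1 at 45.6, 41.2 and 37.2 FPKM, of which Sdc1 overlapped Sdc3 and Sdc3 overlapped Gpc1. Sdc4, Gpc4 and Gpc6 came last, each apart from the next. Sdc4 thus went from the second to the fifth place.

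A share within 1 library does not depend on how libraries are scaled against each other, so the makeup of each family was also compared. Sdc4 made up 32.4%, 32.8% and 32.7% of the summed syndecan FPKM in Control, but 12.2%, 13.5% and 13.0% after treatment. Sdc2 went from 36.0 ± 2.43% to 49.8 ± 1.45% and Sdc3 from 10.2 ± 1.19% to 17.7 ± 1.04% (SD, n = 3). The Sdc1 share was 21.1 ± 1.41% and 19.6 ± 0.971%, and its ranges overlapped. The ratio of Sdc2 to Sdc4 was 1.18, 1.02 and 1.11 for the Control libraries against 4.02, 3.795 and 3.76 for the treated ones. Among glypicans, Gpc1 went from 30.7 ± 2.35% to 57.5 ± 3.36% of the summed FPKM, Gpc6 from 34.2 ± 3.67% to 14.6 ± 1.85%, and Gpc4 from 35.1 ± 3.56% to 27.9 ± 1.66%. The Gpc4 shares did not overlap between groups, although its own level was not called. The exact permutation test (two-sided) gave p = 0.1, the smallest that 3 against 3 allows, for each share but that of Sdc1, where the exact p was 0.2, and 0.1 is not under the threshold used.

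**Figure D3:**
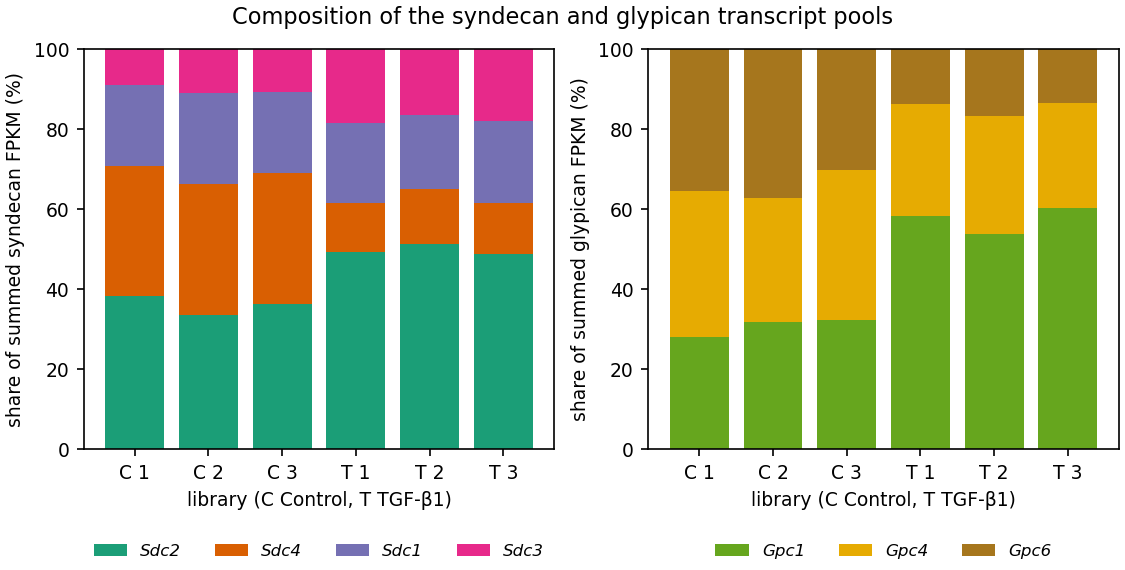
Share of each member in the summed syndecan FPKM (left) and the summed glypican FPKM (right), in percent, for each of the 3 Control (C) and 3 TGF-β1 (T) libraries. Sdc4 takes 32.4 to 32.8% in Control and 12.2 to 13.5% with TGF-β1, and Gpc1 takes 28.0 to 32.3% and 53.8 to 60.4%.

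The summed syndecan level was 169 to 172 FPKM in Control and 226 to 237 FPKM with TGF-β1, a difference of 62.0 FPKM. The summed glypican level was 51.2 to 55.7 FPKM and 61.8 to 66.9 FPKM, a difference of 11.3 FPKM. As deposited, neither sum overlapped between groups (exact permutation p = 0.1 for each). After the rescaling to longer protein-coding rows the differences were 34.7 and 3.30 FPKM. The syndecan sums were still apart in that rescaling, but the glypican sums overlapped between groups. A higher glypican sum with TGF-β1 thus depended on the scaling.

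Upstream sequence was held for 4 of the 7 members (Sdc1, Sdc3, Sdc4 and Gpc4). The 250 bases before the start site are shown for the syndecan with the largest log2 change upwards and for the one that fell, from RefSeq on GRCm38.p6, 5′ to 3′ on the strand of the gene. Capitals mark CAGAC or its reverse complement, the short box that SMAD proteins, the transcription factors of TGF-β signalling, are known to bind.

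Sdc3, chr4:130792287-130792536, plus strand: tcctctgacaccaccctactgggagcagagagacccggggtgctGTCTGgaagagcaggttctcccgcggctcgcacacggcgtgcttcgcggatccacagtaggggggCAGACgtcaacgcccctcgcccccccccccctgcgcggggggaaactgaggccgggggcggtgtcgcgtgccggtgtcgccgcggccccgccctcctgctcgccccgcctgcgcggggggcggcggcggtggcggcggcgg

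Sdc4, chr2:164443189-164443438, minus strand: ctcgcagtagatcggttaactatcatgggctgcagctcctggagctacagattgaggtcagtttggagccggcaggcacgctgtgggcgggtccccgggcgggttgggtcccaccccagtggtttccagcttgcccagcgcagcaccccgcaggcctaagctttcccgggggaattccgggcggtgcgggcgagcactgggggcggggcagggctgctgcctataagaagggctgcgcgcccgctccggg

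The Sdc3 window held 2 matches to CAGAC on either strand and the Sdc1 window held 1, while the Sdc4 and Gpc4 windows held 0. At least 1 match was found in 42.2% of the 32851 windows of the same length. The GC box GGGCGG, the site of the general factor SP1, was found 3 times for Sdc1, 3 for Sdc3, 4 for Sdc4 and once for Gpc4, and in 32.7% of all windows. A match is a description of the letters only, and was not tested for binding.

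Genes that build, modify and release these proteoglycans were described next, in 9 lists. In each list the 3 members with the largest absolute log2 change are named. Counts are of tested rows, and 48.1% of all tested rows were called, 24.5% up and 23.6% down.

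Of the enzymes that assemble the linker and the heparan sulfate chain, 11 were tested, with 4 up, 2 down and 5 not called (median log2 change -0.04). The share called, 54.5%, was near that of all tested rows. Ext1, a subunit of the polymerase that extends the chain, had 93.8, 92.8 and 97.1 FPKM in the Control libraries, then 207, 237 and 197 FPKM after treatment (adjusted p 1.95e-04 by limma, log2 change 1.16). Its partner subunit Ext2, named after its values were seen, went the other way, from 53.6 ± 4.47 to 43.5 ± 1.77 FPKM (limma adjusted p 0.0327). The Ext2 call was lost in 9 of 18 alternatives. B4galt7, which adds the first galactose of the linker, rose from 8.55 ± 0.786 to 17.1 ± 1.10 FPKM. Pxylp1, the phosphatase that removes a phosphate from the linker xylose (listed under its older symbol Acpl2), fell from 6.40 ± 0.573 to 2.65 ± 0.467 FPKM. The limma adjusted p-values of these 2 genes were 5.44e-04 and 0.00119.

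Of the enzymes that sulfate or epimerise the chain, 10 were tested, with 5 up and 1 down (median 0.34). Glce, the epimerase that turns glucuronic into iduronic acid, had 4.77, 3.58 and 4.61 FPKM in the Control libraries, then 13.9, 15.9 and 14.2 FPKM after treatment (adjusted p 1.68e-04 by limma, log2 change 1.56). The 3-O-sulfotransferases Hs3st1 and Hs3st5 went in opposite directions. Hs3st1 rose from 8.44 ± 1.03 to 25.8 ± 0.993 FPKM (log2 change 1.51), and Hs3st5 fell from 5.05 ± 0.319 to 1.85 ± 0.362 FPKM (log2 change -1.09), with limma adjusted p-values of 1.03e-04 and 8.35e-04. Below the filter, Hs3st4 was listed at 0 in all Control libraries and Hs3st6 in all treated ones, and neither was called without the filter. Both were near 0 in the other group too, with a treated mean of 0.0103 FPKM for Hs3st4 and a Control mean of 0.0597 FPKM for Hs3st6.

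Genes that edit or degrade the chain were called in both directions (9 tested, 2 up and 4 down, median 0.05). Sulf1, an extracellular sulfatase that trims 6-O-sulfates, had 4.29, 4.95 and 4.99 FPKM in the Control libraries, then 15.7, 15.8 and 14.2 FPKM after treatment (limma adjusted p 7.62e-05). The lysosomal enzymes Sgsh and Idua, which act in heparan sulfate breakdown, fell. Sgsh went from 7.76 ± 1.39 to 2.70 ± 0.191 FPKM and Idua from 8.57 ± 1.60 to 3.68 ± 0.319 FPKM, with limma adjusted p-values of 6.64e-04 and 0.00165.

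Among suppliers of sugar and sulfate, 8 were tested, with 4 up and 0 down (median 0.37). The share called, 50%, was near that of all tested rows. Uxs1, which makes UDP-xylose, rose from 25.04 ± 2.85 to 47.8 ± 0.814 FPKM. Papss2, which makes the sulfate donor PAPS, rose from 1.92 ± 0.298 to 4.13 ± 0.578 FPKM, and the sulfate transporter Slc26a2 from 2.87 ± 0.343 to 4.51 ± 0.242 FPKM. The limma adjusted p-values were 5.54e-04, 0.00341 and 0.00879. In replicates 1 and 3 alone Slc26a2 was not called (limma adjusted p 0.0585) and 2 genes of the list were called.

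Enzymes of chondroitin sulfate, a chain built on the same linker, were upregulated in 4 of 5 tested genes with 0 down (median 0.82). Csgalnact1, which starts that chain, had 2.46, 1.99 and 2.23 FPKM in the Control libraries, then 14.2, 14.9 and 12.9 FPKM after treatment (adjusted p 2.66e-05 by limma, log2 change 2.22). The chain-extending genes Chsy1 and Chpf2 rose from 5.24 ± 1.78 to 13.7 ± 1.59 FPKM and from 5.59 ± 0.658 to 10.7 ± 1.64 FPKM, with limma adjusted p-values of 0.00552 and 0.00364.

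Genes of shedding and processing were called in both directions (10 tested, 5 up and 1 down, median 0.31), or 3 up and 0 down of 7 tested with the GC and length trend removed. That fit holds only protein-coding rows with a GC value. Mmp16, called down, and a gene called up had no row in it, so their calls were absent and not lost. Mmp14, a membrane-bound protease known to cleave syndecan-1, had 128, 145 and 152 FPKM in the Control libraries, then 330, 325 and 328 FPKM after treatment (adjusted p 1.53e-04 by limma, log2 change 1.20). Of its relatives, Mmp15 rose from 2.01 ± 0.131 to 8.49 ± 1.01 FPKM and Mmp16 fell from 8.73 ± 0.597 to 2.47 ± 0.135 FPKM (limma adjusted p 1.11e-04 and 8.01e-05). Below the filter, Mmp9 was listed at 0 in all Control libraries and had a treated mean of 0.716 ± 0.217 FPKM, and it was called without the filter (limma adjusted p 0.00218). Its row names a transcript of only 416 nt, so its level rests on few fragments if the value is of that transcript. Mmp7 and Notum, the latter a lipase that releases glypicans, were listed at 0 in all treated libraries and were not called. Their Control means were only 0.104 and 0.0244 FPKM, so both were near 0 in either group.

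Genes that attach or remodel the GPI anchor, which glypicans need, were mostly not called (7 tested, 1 up and 1 down, median 0.01). Pgap3, which acts on the anchor lipid, fell from 7.03 ± 1.74 to 2.81 ± 0.188 FPKM, and Pigk, the catalytic subunit of the transamidase, rose from 13.8 ± 3.40 to 24.9 ± 3.25 FPKM. The limma adjusted p-values were 0.0031 and 0.0107, and that of Pigk was 0.0585 in replicates 1 and 3 alone. Pigt, another subunit, was at 32.9 ± 5.33 and 26.9 ± 1.08 FPKM (limma adjusted p 0.117). After the rescaling to longer protein-coding rows 1 gene was up and 3 were down.

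Proteins known to act with the syndecan tail were called in both directions (10 tested, 4 up and 1 down, median 0.46). Here too the share called, 50%, was near that of all tested rows. Actn1, the actin crosslinker alpha-actinin-1, had 81.8, 87.0 and 87.8 FPKM in the Control libraries, then 305, 322 and 302 FPKM after treatment (adjusted p 1.82e-05 by limma, log2 change 1.84). Ezr, which encodes the membrane-to-actin linker ezrin, fell from 70.9 ± 4.48 to 29.7 ± 1.84 FPKM (adjusted p 1.23e-04 by limma, log2 change -1.23). Cask, a PDZ scaffold, rose from 5.69 ± 0.423 to 11.6 ± 2.26 FPKM (limma adjusted p 0.00344). Sdcbp encodes syntenin-1, a PDZ protein, though not the only one, that binds the capital letters shown above once translated. It stood at 78.5 ± 12.9 and 85.7 ± 1.74 FPKM and was not called (limma adjusted p 0.411). It was chosen after its values were seen.

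Of the other proteoglycans that can carry heparan sulfate, 6 were tested, with 1 up and 1 down (median 0.18). Tgfbr3 encodes betaglycan, a co-receptor for TGF-β. Control libraries had 9.19, 9.50 and 7.79 FPKM of it, then treated ones 1.33, 1.36 and 1.10 FPKM (adjusted p 4.69e-05 by limma, log2 change -2.12). Cd44, the hyaluronan receptor, rose from 25.1 ± 2.30 to 91.7 ± 14.5 FPKM (limma adjusted p 1.43e-04). Hspg2, which encodes the basement membrane proteoglycan perlecan, had 64.2, 32.8 and 55.6 FPKM in the Control libraries, then 101, 22.3 and 110 FPKM after treatment. Replicate 2 was the lowest library of both groups, and the gene was not called (adjusted p 0.663 by limma, log2 change 0.36). Without TGF-β1 replicate 2 its log2 change was 1.09 (limma adjusted p 0.0306), and without TGF-β1 replicate 3 it was -0.04.

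**Figure D4:**
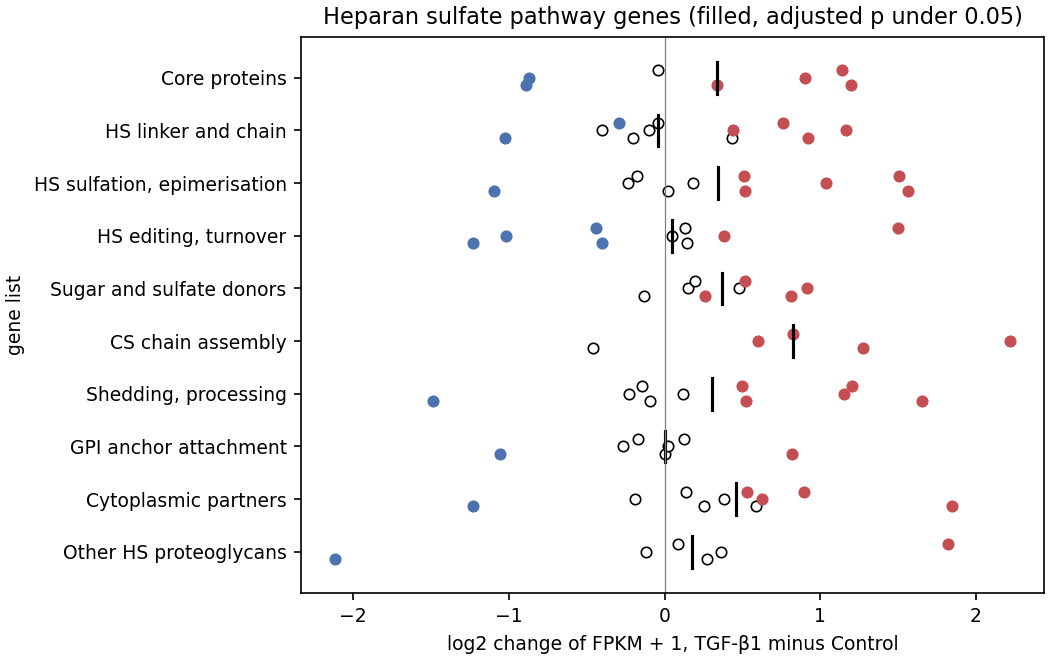
Log2 change of FPKM + 1 (TGF-β1 minus Control) of every tested gene in the core protein list and the 9 related lists (HS, heparan sulfate; CS, chondroitin sulfate; GPI, glycosylphosphatidylinositol). Filled points had a limma adjusted p under 0.05, red up and blue down, open points were not called, and the black bar is the median of the list, from -0.04 for linker and chain genes to 0.82 for CS genes.

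Of the 33 genes named from these lists, with Ext2 left out, 19 overlap another annotated gene. The row of Mmp16, Sgsh and Pgap3 names a transcript not annotated as protein coding. The levels of all these genes are uncertain.

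The genes whose levels across the 6 libraries were most like those of Sdc3 and Gpc6, the members with the largest log2 changes up and down, were found by Euclidean distance in log2(FPKM + 1) among 9860 other protein-coding rows with a mean of at least 1 FPKM. The log2 changes of Gpc6 and Sdc4 differed by less than their SEs, and without Control replicate 2 that of Sdc4 was the larger fall (-0.86 against -0.83). For Sdc3 the nearest were Lpcat2, Eda2r and Nkain1, at distances of 0.24, 0.27 and 0.29. Nkain1 had 17.0 ± 0.261 FPKM in Control and 43.5 ± 2.42 FPKM with TGF-β1. For Gpc6 the nearest were Zfp90, Sbf2 and Ccnt2, at 0.17, 0.19 and 0.26. Zfp90 had 18.4 ± 0.759 and 9.23 ± 0.664 FPKM.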

How the data were processed

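RNA was sequenced on an Illumina HiSeq. Reads were cleaned by the authors, aligned to mm9 with TopHat (TopHat2 2.0.11 in the submitters' processing notes) and turned into FPKM with Cufflinks. Each library has 1 deposited column of FPKM. No annotation and no further scaling are stated. A row carries 1 transcript identifier and 1 symbol. Whether it holds the value of the gene or of that transcript is not stated.

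Of 19730 rows, 19699 were found in the mm9 annotation (GENCODE M1) by transcript identifier. Depth was recovered from single-transcript coding genes under 0.6 FPKM with an assumed fragment length of 200 nt: over 1002 to 1104 genes per library, 99.1 to 99.8% of the values were whole fragments within 0.05. These depths are approximate.

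The study tested counts. Here the FPKM were tested by linear models under R 4.3.3 (limma 3.58.1, moderated with a mean-dependent prior). This two-sided test ran on log2(FPKM + 1), which understates the change of low genes, in the 11898 rows whose mean reached 1 FPKM, and p-values were adjusted over them by Benjamini-Hochberg. Both groups of 3 were fitted with no covariate, and an adjusted p under 0.05 was called. Genes under the filter come from the same fit without it. Sums and shares used a two-sided exact permutation test (scipy 1.17.1). The members and lists were chosen with earlier results of these data known. All members are named, and from each of 9 lists the 3 genes with the largest absolute change and genes listed at 0 in a group. Sdcbp and Ext2 were added after their values were seen. Of the marker and target lists, 2 genes are not reported here and were left out of the sums. Promoter sequences are RefSeq's (GRCm38.p6); coding ends are from mm9.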

Additional observations from a re-analysis of the deposited data

How the results depend on the processing

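Each member was compared under 19 alternatives, and each sum recomputed under 9. Where only the filter, error model, replicate term or threshold differed, the log2 change equalled that of the main fit. Its direction could not turn in those. Sdc2, Sdc3, Sdc4, Gpc1 and Gpc6 kept direction and call under all 19, with adjusted p-values of at most 0.00583. The number of called members was 5 or 6 throughout. Leaving out 1 library gave log2 changes of 0.31 to 0.39 for Sdc1, 0.86 to 0.94 for Sdc2, 1.10 to 1.26 for Sdc3, -0.91 to -0.85 for Sdc4, 1.05 to 1.21 for Gpc1, -0.13 to 0.039 for Gpc4 (0.039, with the sign turned, without Control replicate 3) and -0.95 to -0.83 for Gpc6. The Sdc1 call (0.33) was also lost at an adjusted p under 0.01, by construction of the stricter threshold, and after rescaling to the sum of longer (300 nt or more) protein-coding rows (0.14). In that rescaling the differences of the sums were 34.7 FPKM for syndecans and 3.30 FPKM for glypicans. It also split all calls into 2003 up and 3924 down, against 2911 and 2810.

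Of the related lists, suppliers of sugar and sulfate had 2 calls in replicates 1 and 3 alone, against 4. Shedding and processing had 3 once the GC and length trend was taken out, against 6, with 7 rows tested in place of 10. The rows not tested there included called genes, Mmp16 among them. GPI anchor attachment had 4 after the rescaling, and 1 in replicates 1 and 3 alone and at the stricter threshold, against 2. Other heparan sulfate proteoglycans had 4 with the replicate block and the GC and length trend removed (5 tested), against 2. Apart from the stricter threshold and the rows absent from a fit, the cause of these shifts was not tested.

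The labels share replicate numbers between groups. Deviations of same-numbered libraries had correlations across genes of 0.09, 0.23 and 0.09 for replicates 1 to 3. Between different numbers, Control replicate 1 and TGF-β1 replicate 3 had 0.12, and every other combination was negative (-0.19 to -0.02). Deviations were taken from the group mean, so positive values in some combinations force negative ones in others. The negative values are therefore no separate evidence. The main fit took no pairs, and whether the numbers mark pairs was not tested. With the replicate block 5391 genes were called in place of 5721, 6 members among them, with Sdc1 at an adjusted p of 0.0485. Each member rested on at least 444 fragments in a library, and a group had 3 libraries.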
